A study of Mus musculus with 24 samples.

Results

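The 51 genes described here encode the proteins that copy DNA in S phase and supply its building blocks. They were chosen by name for these roles, matched by gene symbol, and found once each among the 55401 genes of all 3 count tables of the series. All 51 had enough counts to be tested in every table. For the description they were split by role into 10 genes that load the helicase at origins (Orc1, Orc6, Cdc6, Cdt1 and Mcm2 to Mcm7) and 6 that activate it (Mcm10, Cdc45 and Gins1 to Gins4). A further 9 encode primase and polymerase subunits, 11 the sliding clamp, its loader, the single-strand binding protein and the enzymes that join Okazaki fragments, and 5 the enzymes of deoxynucleotide supply. The last 8 act in fork protection, chromatin assembly and histone mRNA processing, and 2 encode the E-type cyclins.

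Messenger RNA was measured in cultured mouse pancreatic ductal adenocarcinoma cells whose p53 status was switched with doxycycline. In KPsh cells a hairpin silences Trp53, the gene of p53, as long as doxycycline is present. After 10 days, 3 libraries came from cells with doxycycline at 1 µg/ml and 3 from cells without it. The KPnull line has no p53 of its own and received an inducible construct, either the vector alone, wild-type p53 (p53WT), or p53 mutated in transactivation domain 1 (TAD1m), in domain 2 (TAD2m) or in both (TAD12m). The 5 KPnull groups (n = 2 each) were taken as given 1 µg/ml doxycycline for 48 hours, empty vector included, as the growth protocol states, although the series' design text speaks of cells with or without the drug. The remaining groups were KPsh cells knocked out for Pcyt2 with a guide RNA (sgPcyt2), or the same with a guide-resistant Pcyt2 cDNA added back, each on or off doxycycline for 6 days (n = 2 each). Pcyt2 encodes an enzyme of phosphatidylethanolamine synthesis. The promoter of the constructs and the clonality of the lines are not stated. The drug and p53 change together in every withdrawal comparison and cannot be told apart there. Whether a replicate was a culture of its own is not stated, and the p-values may rest on technical spread alone.

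In mm10 coordinates, the genes the results turn on most include Mcm5 at chr8:75109569-75128439 (plus strand), Mcm10 at chr2:4989714-5012344 (minus strand), Rrm2 at chr12:24708241-24714146 (plus strand), Hells at chr19:38930915-38971051 (plus strand) and Ccne1 at chr7:38097984-38107534 (minus strand), and the 51 lie on 15 chromosomes. Counts are over the exons of 1 transcript per gene, the same in the 3 count tables for 49 members. It differed for Rpa1 (5044 bases in the KPnull table, 2907 in the others). For Tyms it had 3150 bases in the KPsh table and 3869 in the others.

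Before S phase the origin recognition complex, Cdc6 and Cdt1 load the ring of Mcm2 to Mcm7 on DNA. Cyclin E with its kinase, Cdc45 and the GINS complex then turn the ring into the moving helicase. Polymerase alpha with primase starts each strand, polymerases delta and epsilon extend it on the PCNA clamp, and ribonucleotide reductase (Rrm1 and Rrm2), thymidylate synthase, thymidine kinase and dUTPase supply the nucleotides. Many of these genes are transcribed in a pulse around the start of S phase by E2F factors. When p53 induces p21 (Cdkn1a), the retinoblastoma family and the DREAM complex are known to hold such genes down.

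Library totals ran from 9398977 to 12988762 counts in the KPsh table, 13662715 to 19436728 in the KPnull table and 13806378 to 17132699 in the Pcyt2 table. Values are counts-per-million (CPM) of the TMM-scaled library, and a level compared between genes is CPM per kilobase of exon. Differences are log2 changes ± standard error of edgeR's quasi-likelihood fit, and a gene was called at a Benjamini-Hochberg adjusted p under 0.05 over all genes tested. Trp53 RNA stood at 21.7, 21.1 and 20.3 CPM on and 259, 251 and 263 CPM off doxycycline in the KPsh libraries. In KPnull cells it was 6.12 and 4.53 CPM with vector and between 523.9 and 685.5 CPM with the 4 p53 forms. The sgPcyt2 libraries had 22.7 and 19.1 CPM on and 42.1 and 41.6 CPM off, and those with the cDNA 19.3 and 20.2 CPM on and 97.1 and 86.7 CPM off. Pcyt2 RNA lay between 17.7 and 28.6 CPM in the sgPcyt2 libraries and between 2191 and 2633 CPM in those with the cDNA, though an edit need not remove RNA. In the KPsh libraries without the guide, counted in another table, it lay between 83.3 and 113.7 CPM. The ductal keratins Krt8, Krt18 and Krt19 were abundant, with a summed level of the 8 epithelial markers of at least 5032 CPM in every library. Epcam, also an epithelial marker, was near the floor. Krt7, a further ductal keratin, lay between 204.6 and 1046 CPM in the KPsh libraries but between 0.19 and 2.40 CPM in the Pcyt2 libraries. Of 30 markers of fibroblasts, immune, endothelial, and acinar and endocrine cells, 26 to 27 stayed below 1 CPM in every library of a table, and Adgre1, Lum, Dcn and Prss1 were at 0 throughout.

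Because the members moved together in most comparisons, the DNA before their starts is shown here for 5 of them. RefSeq promoters of build GRCm38.p6, 250 bases before to 50 after a start, were found for 42 of the 51 genes. Each was searched on both strands for the E2F letters TTTCCCGC, TTTCGCGC, TTTGCCGC and TTTGGCGC, where matches may overlap each other. Such a match lay in 17 of 48 member promoters (35.42%), against 3.84% of the 13367 promoters of expressed genes and 2.26% of all 32851 promoters. Expressed genes here were those that reached a mean-count cut in any count table, not those tested in edgeR. The CCAAT letters lay in 56.25% of member promoters against 37.67% of those of expressed genes, and the TTTGAA letters of the CHR element in 10.42% against 12.39%. The lines below give the 200 bases before the start, 5′ to 3′ on the strand of the gene, with E2F matches in capitals. RefSeq starts need not be those of the transcripts counted. Orc1, Mcm5, Mcm6 and Pola1 hold such matches, and Mcm10, one of the members that fell the most, has none.
Orc1, chr4:108579254-108579453, plus strand: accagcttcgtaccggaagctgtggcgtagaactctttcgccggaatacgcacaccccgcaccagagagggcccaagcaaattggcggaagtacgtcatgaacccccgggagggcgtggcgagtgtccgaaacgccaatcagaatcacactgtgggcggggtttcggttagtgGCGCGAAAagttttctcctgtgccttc
Mcm5, chr8:75109309-75109508, plus strand: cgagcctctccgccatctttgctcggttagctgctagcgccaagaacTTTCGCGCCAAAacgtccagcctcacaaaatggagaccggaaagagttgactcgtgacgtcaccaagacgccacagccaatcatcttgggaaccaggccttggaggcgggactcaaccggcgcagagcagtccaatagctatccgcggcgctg
Mcm6, chr1:128359706-128359905, minus strand: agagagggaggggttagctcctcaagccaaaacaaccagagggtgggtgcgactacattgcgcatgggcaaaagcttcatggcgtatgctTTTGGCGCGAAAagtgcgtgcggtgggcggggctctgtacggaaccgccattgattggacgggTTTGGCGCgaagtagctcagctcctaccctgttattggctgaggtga
Pola1, chrX:93632156-93632355, minus strand: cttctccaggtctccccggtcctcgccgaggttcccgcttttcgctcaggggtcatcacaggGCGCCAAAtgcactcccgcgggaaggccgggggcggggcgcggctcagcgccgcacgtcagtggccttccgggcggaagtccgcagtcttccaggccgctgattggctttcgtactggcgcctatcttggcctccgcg
Mcm10, chr2:5012792-5012991, minus strand: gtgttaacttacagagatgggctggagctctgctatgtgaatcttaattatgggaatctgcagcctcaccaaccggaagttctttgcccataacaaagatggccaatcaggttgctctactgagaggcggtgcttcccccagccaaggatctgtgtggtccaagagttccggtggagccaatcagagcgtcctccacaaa

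The Mcm5 stretch has 2 overlapping matches on opposite strands, which begin 153 and 149 bases before the start. Mcm6 has the same arrangement at 110 and 106 bases and a further match at 47 bases, while the only match of Orc1 begins 27 bases and that of Pola1 138 bases before the start. Across the 42 genes, the 17 with a match and the 25 without had median log2 changes of −0.67 and −0.43 on withdrawal in KPsh cells, −0.94 and −0.90 with p53WT, −2.56 and −2.17 on withdrawal in sgPcyt2 cells, and −2.39 and −2.02 with the cDNA. With TAD2m the medians were −0.87 and −0.88, with TAD1m −0.14 and −0.20, and for TAD1m against TAD12m −0.07 and −0.17. The ranges overlapped in each of these, from −1.06 to −0.26 with a match and from −1.02 to −0.03 without in KPsh cells. A match describes letters in a window and is not evidence of a bound factor.

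When p53 was allowed back in KPsh cells for 10 days, 44 of the 51 genes fell, 1 rose and 6 did not pass, with a median log2 change of −0.49. Of all 13990 genes tested, 64.8% were called, 31.7% lower and 33.1% higher, with a median of 0.01. The members took up 0.716% to 0.725% of all counts on doxycycline and 0.484% to 0.490% off it. On doxycycline their levels per kilobase ranged from 6.2 CPM (Gins3) to 355.1 CPM (Rrm2) around a median of 37.73 CPM. Mitochondrial transcripts were 1.80% to 1.98% of counts on and 1.95% to 2.41% off the drug. The summed immune markers, mostly Csf1r and Cd68, were at 11.6 to 14.7 CPM on and 18.3 to 24.2 CPM off, and the 5 endothelial markers at 0.23 to 0.73 CPM on and 2.78 to 3.22 CPM off. The part of these in the members' changes was not tested. In bulk RNA, fewer cells in S phase and less of these RNAs per cell cannot be told apart.

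Every gene of helicase loading fell, from Orc6 by 0.41 ± 0.06 to Mcm5 by 1.02 ± 0.06 (adjusted p = 6.78e-13). Mcm7, the subunit of the ring with the most RNA per kilobase, measured 359, 349 and 348 CPM on doxycycline and 261, 253 and 242 CPM off it, a fall of 0.48 ± 0.05. Mcm5 measured 282, 280.4 and 272 CPM on and 128, 139.9 and 142 CPM off. The groups did not overlap for either subunit, and all 3 libraries off the drug lay below all 3 on it. Among the 6 activating factors 4 fell, led by Mcm10, a scaffold of the starting fork, by 1.02 ± 0.07, and Cdc45 fell by 0.49 ± 0.08. Gins2 was the only member that rose, by 0.25 ± 0.06 (adjusted p = 0.00104), from 77.2, 82.9 and 77.6 CPM to 95.3, 90.6 and 97.4 CPM. Gins4, at 49.9, 52.5 and 46.7 CPM on and 58.0, 52.0 and 52.2 CPM off, did not pass (0.12 ± 0.07). The smallest fall called among the activators, Gins3 by 0.26 ± 0.11 (adjusted p = 0.0483), was lost in 8 of 11 alternative analyses, with adjusted p up to 0.169.

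The Gins2 value carries a limit of its own. Gins2 lies on the mm10 genome at chr8:120578633-120589304 (minus strand). Of its exon bases, 70.7% overlap exons of Gse1 on the opposite strand, and reads of both strands were counted, so the 2 genes cannot be told apart there. Gse1 rose in the same comparison by 0.17 ± 0.06, and its mean level was 96.3 CPM. It also rose by 0.63 ± 0.15 with p53WT, by 0.73 ± 0.05 on withdrawal in sgPcyt2 cells and by 0.81 ± 0.05 with the cDNA, where Gins2 stood out again. Its part in the Gins2 counts was not tested. Fen1, the flap endonuclease, overlaps the model gene Gm10143 over 80.4% of its exons, Chaf1a overlaps Ubxn6 over 33.6%, and a further 6 members overlap another gene over 11.9% to 19.9%.

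All 9 primase and polymerase genes fell off doxycycline, the most Pold2, the small subunit of polymerase delta, by 0.92 ± 0.07 and the least Pole2, the small subunit of polymerase epsilon, by 0.31 ± 0.10. Pold2 read 101, 105 and 104 CPM on and 56.2, 50.5 and 57.0 CPM off, so the groups lay well apart. Of the 11 clamp, loader and ligation genes 9 fell. Rfc1, the large subunit of the clamp loader, fell by 0.92 ± 0.07, while Rfc2 (−0.04 ± 0.07) and Rpa1 (−0.03 ± 0.05) did not pass. Pcna, the clamp itself, had the smallest called fall of the group at 0.23 ± 0.06 (adjusted p = 0.00116), from 234, 237 and 245 CPM to 211, 189 and 210.1 CPM.

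All 5 nucleotide genes fell, with changes from −0.52 to −0.24. Rrm2, the S-phase subunit of ribonucleotide reductase, had the highest level of all members in these cells and measured 779, 789.7 and 747 CPM on and 586, 587 and 551 CPM off, a fall of 0.43 ± 0.05. Its partner Rrm1 fell by 0.52 ± 0.05 and Dut, the dUTPase, by 0.24 ± 0.07. In the fork and chromatin group 7 of 8 fell, and Hells, a chromatin remodeller of the SNF2 family, had the largest fall of all members at 1.06 ± 0.06 (adjusted p = 1.7e-12). Hells measured 286, 269.7 and 278 CPM on and 133, 146 and 123 CPM off. Tipin, which with Timeless steadies the fork, went from 84.3, 77.7 and 81.6 CPM to 63.4, 66.6 and 62.5 CPM (0.34 ± 0.06 lower), Chaf1a fell by 0.33 ± 0.05 and Chaf1b did not pass (−0.09 ± 0.07).

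Neither E-type cyclin passed in KPsh cells in edgeR, and neither had an unadjusted p under 0.05. Ccne1 read 53.9, 54.7 and 50.3 CPM on and 49.6, 53.4 and 48.0 CPM off (−0.07 ± 0.07, adjusted p = 0.395), and Ccne2 read 44.3, 46.1 and 49.3 CPM on and 48.3, 42.7 and 36.1 CPM off (−0.14 ± 0.09, adjusted p = 0.179). The libraries of the 2 groups overlapped for both genes. Cdkn1a, by contrast, rose by 3.22 ± 0.06 in these libraries.

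**Figure D1:**
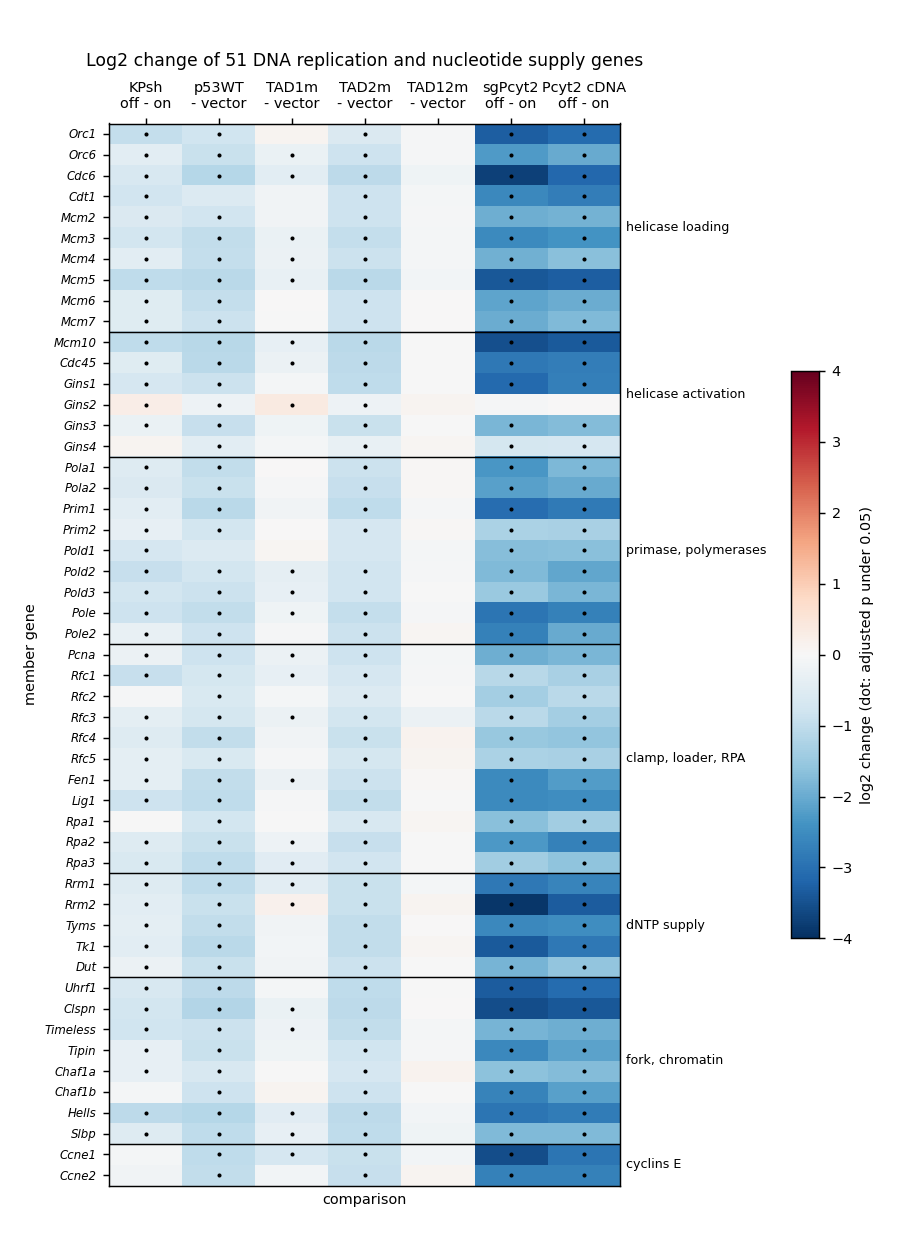
Log2 change of each of the 51 members (rows, grouped by role) in 7 comparisons (columns); blue is lower, red is higher, and a dot marks an adjusted p under 0.05. Most rows are blue in the KPsh, p53WT, TAD2m and the 2 Pcyt2 columns, with 44, 49, 50, 50 and 50 called falls, the TAD12m column has no dot, and Gins2 stands out as the row that stays pale or turns red.

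In KPnull cells, wild-type p53 lowered 49 of the 51 members within 48 hours, raised none, and left 2 that did not pass, at a median log2 change of −0.90. Over all 15075 genes tested 50.6% were called, 25.1% lower and 25.5% higher, with a median of −0.01. All 51 members had both p53WT libraries below both vector libraries, a separation that was not counted over all genes. The falls were even, with quartiles of −1.01 and −0.78, and 14 members fell more than 2-fold. Their share of all counts was 0.694% to 0.700% with vector and 0.363% to 0.368% with p53WT.

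Among the loading factors Cdc6, which loads the MCM ring, fell the most with p53WT, by 1.14 ± 0.09, and Mcm2 the least of those called, by 0.78 ± 0.06. Mcm3, the loading factor with the highest level in this table, went from 390.0 and 365 CPM with vector to 190.4 and 188 CPM with p53WT. Of the activators, Mcm10 fell by 1.11 ± 0.07, Gins4 fell from 55.4 and 53.4 CPM to 40.8 and 39.7 CPM, and Gins2 fell by 0.20 ± 0.07, a call lost in 3 of 11 alternatives with adjusted p up to 0.186. Prim1, the catalytic primase subunit, fell by 1.09 ± 0.08 and Prim2, its partner, by 0.74 ± 0.09. Pold2 measured 95.0 and 112 CPM with vector and 63.0 and 61.0 CPM with p53WT. Lig1, the ligase that seals Okazaki fragments, fell by 1.02 ± 0.06, Rfc2 by 0.62 ± 0.07, and Pcna went from 229.7 and 228 CPM to 131 and 129 CPM. Thymidine kinase Tk1 fell by 1.07 ± 0.07, and Rrm2 from 429 and 430.4 CPM to 230.3 and 234 CPM (0.89 ± 0.05). Clspn, which relays the replication checkpoint, had the largest fall of all members at 1.18 ± 0.09, and Chaf1a the smallest of its group at 0.63 ± 0.06. Uhrf1, which reads hemimethylated DNA behind the fork, went from 264 and 283 CPM to 136 and 129 CPM.

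Both E-type cyclins fell with p53WT, Ccne1 by 1.01 ± 0.10 and Ccne2 by 0.99 ± 0.08. Ccne1 read 27.5 and 26.5 CPM with vector and 12.3 and 14.6 CPM with p53WT, and Ccne2 49.1 and 47.7 CPM and 23.8 and 24.8 CPM. The 2 members that did not pass, Cdt1 (−0.56 ± 0.21, adjusted p = 0.0636) and Pold1 (−0.53 ± 0.23, adjusted p = 0.106), had vector libraries that differed from each other. Cdt1, a loading factor, read 78.5 and 101 CPM with vector and 64.4 and 56.7 CPM with p53WT. Pold1, the catalytic subunit of polymerase delta, read 65.7 and 88.6 CPM and 55.8 and 50.2 CPM. For both genes the p53WT libraries still lay below the vector libraries.

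With TAD2m, the p53 mutated in the second transactivation domain, 50 members fell and only Pold1 did not pass (−0.67 ± 0.24, adjusted p = 0.0573), at a median of −0.86. The background was 24.2% of all genes lower and 24.9% higher, with a median of −0.01. The lowest and highest called changes by role were Mcm5 (−1.07 ± 0.06) and Orc1 (−0.59 ± 0.09), Mcm10 (−1.08 ± 0.07) and Gins2 (−0.22 ± 0.07), Prim1 (−1.01 ± 0.08) and Prim2 (−0.67 ± 0.09), and Lig1 (−0.98 ± 0.06) and Rfc2 (−0.54 ± 0.07). For nucleotide supply they were Tk1 (−0.98 ± 0.07) and Dut (−0.86 ± 0.06), for the fork group Hells (−1.06 ± 0.07) and Chaf1a (−0.66 ± 0.06), and for the cyclins Ccne2 (−0.92 ± 0.08) and Ccne1 (−0.88 ± 0.10). Of the 50 calls 2 were lost in 4 of 11 alternatives each, Gins2 with adjusted p up to 0.122 and Cdt1 (0.82 ± 0.21 lower) with adjusted p up to 0.0816. Set directly against p53WT, none of the 51 members passed with edgeR and none with DESeq2, and 1 had an unadjusted p under 0.05. In that comparison 0.0862% of all genes were lower and 0.199% higher. The members' differences between TAD2m and p53WT ran from −0.26 to 0.26, with a median of 0.04, and standard errors were mostly near that of Pcna (−0.02 ± 0.06). Rrm2 gives the picture, at 235 and 233 CPM with TAD2m beside 230.3 and 234 CPM with p53WT.

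The mutant of the first domain behaved otherwise. With TAD1m 22 members fell, 2 rose and 27 did not pass against vector, at a median of −0.15, where 17.5% of all genes fell and 19% rose, with a median of −0.01. The share of members called lower was 43.1%. In the direct comparison with p53WT, 49 members were higher with TAD1m and none lower, at a median of 0.73, where 39.1% of all genes were called, 20.4% higher and 18.7% lower. All 51 had both TAD1m libraries above both p53WT libraries, a separation that was not counted over all genes. The exceptions to the call were Cdt1 (0.42 ± 0.21) and Pold1 (0.61 ± 0.23).

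The members that fell with TAD1m did so by small amounts. Ccne1 fell the most, by 0.68 ± 0.10 (adjusted p = 4.01e-05), and measured 27.5 and 26.5 CPM with vector, 16.2 and 17.5 CPM with TAD1m and 12.3 and 14.6 CPM with p53WT. It was also the called member that differed least between TAD1m and p53WT (0.33 ± 0.11), a call lost in 4 of 10 alternatives with adjusted p up to 0.26. Ccne2 showed another order, at 49.1 and 47.7 CPM with vector, 46.6 and 43.5 CPM with TAD1m and 23.8 and 24.8 CPM with p53WT, and did not pass against vector (−0.10 ± 0.08). The lowest called member of the other role groups was Hells (−0.46 ± 0.07), the RPA subunit Rpa3 (−0.45 ± 0.10), Cdc6 (−0.43 ± 0.09), Rrm1 (−0.41 ± 0.06), Pold2 (−0.37 ± 0.09) and Mcm10 (−0.34 ± 0.06). The smallest falls called by role were Mcm4 (−0.24 ± 0.05), Pole (−0.18 ± 0.06), Rpa2 (−0.21 ± 0.07) and Timeless (−0.20 ± 0.07), of which only Mcm4 held in every alternative.

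Against the main direction, Gins2 rose by 0.35 ± 0.07 and Rrm2 by 0.18 ± 0.05 with TAD1m. Gse1, the gene that shares exons with Gins2, rose by 0.90 ± 0.15 in the same comparison. Rrm2 stood at 429 and 430.4 CPM with vector and 495 and 478 CPM with TAD1m. Its call was lost without TAD1m replicate 1 or without vector replicate 1, with adjusted p up to 0.117. Rrm2 and Rrm1, the subunits of 1 enzyme, went in opposite directions with TAD1m, and between TAD1m and p53WT Rrm2 differed by 1.07 ± 0.05 and Rrm1 by 0.59 ± 0.06. Taking the called member with the largest difference from p53WT in the other role groups gave Pola1 (0.99 ± 0.08), Lig1 (0.97 ± 0.06), Mcm6 (0.96 ± 0.06), Uhrf1 (0.96 ± 0.06), Ccne2 (0.89 ± 0.08) and Cdc45 (0.83 ± 0.09). The called member with the smallest difference in each group was Pold2 (0.36 ± 0.09), Gins4 (0.37 ± 0.07), Rfc1 (0.39 ± 0.06), Orc6 (0.63 ± 0.07) and Chaf1a (0.62 ± 0.06), beside Rrm1 and Ccne1 given above. In all, 15 of the 24 calls of TAD1m against vector were made in every alternative, and leaving out 1 library gave 17 to 23 calls.

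With both domains mutated no member passed against vector. The 51 log2 changes lay between −0.23 and 0.13 with a median of −0.02, while 3.85% of all genes were called, 1.85% lower and 2% higher. DESeq2 called none either, and 4 members had an unadjusted p under 0.05 in edgeR. Mcm3 read 361 and 357 CPM, Pcna 209 and 223 CPM and Uhrf1 259.7 and 283 CPM with TAD12m, close to the vector values given above. TAD1m set against TAD12m gave 19 members lower and 1 higher (Gins2, 0.24 ± 0.07), at a median of −0.14, where 14.2% of all genes were lower and 16.8% higher. The lowest called member of each role group was Ccne1 (−0.59 ± 0.10), Rpa3 (−0.43 ± 0.10), Hells (−0.36 ± 0.07), Rrm1 (−0.34 ± 0.06), Mcm10 (−0.32 ± 0.06), Pold2 (−0.31 ± 0.09) and Cdc6 (−0.26 ± 0.09). Of these 20 calls 8 were made in every alternative, and the count fell to 8 without TAD1m replicate 2, to 10 without TAD1m replicate 1 and to 12 with DESeq2.

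Trp53 RNA was 648 and 686 CPM with p53WT, 622 and 653 CPM with TAD1m and 529 and 524 CPM with TAD2m. Cdkn1a read 38.6 and 47.5 CPM with vector, 401 and 358 CPM with p53WT, 299 and 289.9 CPM with TAD2m, 54.3 and 52.5 CPM with TAD1m and 32.6 and 32.6 CPM with TAD12m. Mitochondrial transcripts took 3.01% to 3.09% of counts with p53WT and TAD2m and 2.16% to 2.51% in the other KPnull groups. The summed level of the 8 immune markers, nearly all of it Csf1r and Cd68, was 17.1 to 18.5 CPM with vector, 26.6 to 27.2 CPM with p53WT, 27.3 to 31.2 CPM with TAD2m and 25.7 to 26.4 CPM with TAD1m, while Adgre1 was at 0. The part of these measures in the members' changes was not tested.

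**Figure D2:**
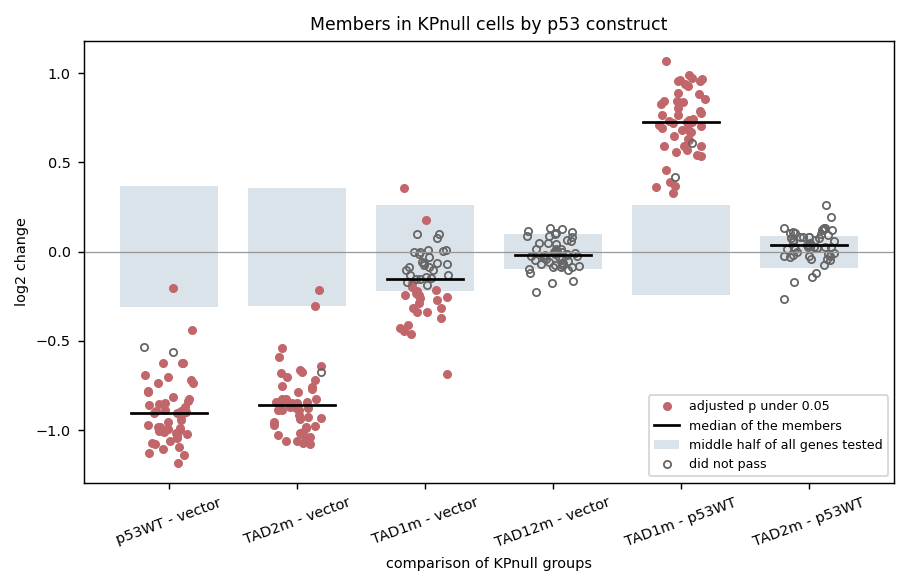
Log2 change of the 51 members (points) in 6 comparisons of KPnull groups, with filled points for an adjusted p under 0.05, a black bar at their median and a pale box between the quartiles of all genes tested. Medians lie at −0.90 and −0.86 for p53WT and TAD2m against vector, at −0.15 for TAD1m and −0.02 for TAD12m, and TAD2m against p53WT has no filled point.

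**Figure D3:**
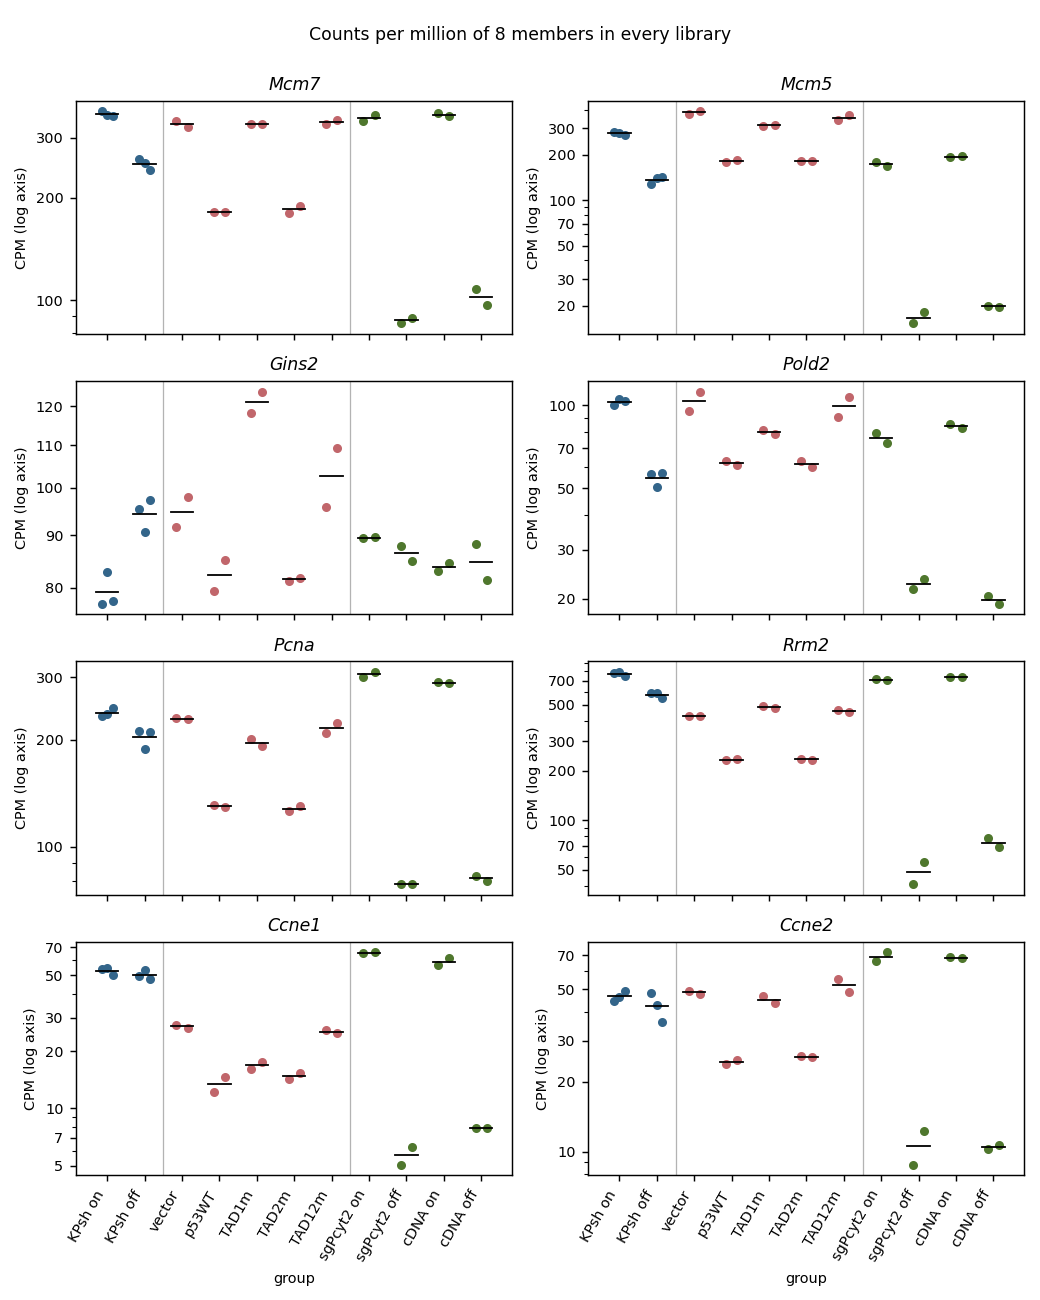
CPM of 8 members in each of the 24 libraries (log axis, points), by group, with a bar at the group mean and vertical lines between the 3 tables. Mcm7, Mcm5, Pold2, Pcna and Rrm2 are lower in KPsh off, p53WT, TAD2m and the 2 Pcyt2 groups off doxycycline; Ccne1 and Ccne2 keep overlapping levels in KPsh on and off; Gins2 spans only 77.2 to 124 CPM.

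In the Pcyt2 set, 6 days without doxycycline lowered 50 of the 51 members in sgPcyt2 cells and 50 in cells with the cDNA, raised none, and left Gins2 alone without a call. The median log2 change was −2.29 in sgPcyt2 cells, where 76.3% of all 14916 genes were called, 37.1% lower and 39.2% higher. With the cDNA it was −2.02, where 73.5% were called, 36.3% lower and 37.3% higher. The median of all genes was 0.02 in both. The members held 0.637% to 0.639% of counts on and 0.134% to 0.146% off doxycycline in sgPcyt2 cells, and 0.631% to 0.634% on and 0.145% to 0.154% off with the cDNA. More than 4-fold falls were seen in 29 members in sgPcyt2 cells and 28 with the cDNA. All 50 calls of each comparison were made in every alternative. Mitochondrial transcripts moved too, from 1.86% to 2.00% of counts on the drug to 3.31% to 3.51% off it, and the 5 endothelial markers, mostly Cdh5, from 0.66 to 2.78 CPM on to 6.66 to 8.26 CPM off. Their part in the result was not tested.

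Rrm2 had the largest fall in sgPcyt2 cells. It read 712 and 706 CPM on and 41.0 and 55.8 CPM off doxycycline, 14.7-fold lower (−3.88 ± 0.13, adjusted p = 2.06e-06). With the cDNA it read 734 and 739.5 CPM on and 77.7 and 68.7 CPM off (−3.33 ± 0.12, adjusted p = 3.32e-06). The others fell too, given here in sgPcyt2 cells and with the cDNA in turn: Rrm1 (−2.86 ± 0.05 and −2.64 ± 0.05), Tk1 (−3.36 ± 0.08 and −2.86 ± 0.08), thymidylate synthase Tyms (−2.57 ± 0.07 and −2.47 ± 0.07), and Dut, the least changed of the 5 (−1.87 ± 0.06 and −1.57 ± 0.06). On doxycycline Rrm2 had the highest level per kilobase of all members in both states, at 326.1 and 338.8 CPM per kilobase. Off it Pcna ranked first, at 52.2 and 54.1 CPM per kilobase.

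The loading factors fell unevenly. Cdc6 fell by 3.73 ± 0.09 in sgPcyt2 cells, from 74.8 and 73.3 CPM to 4.93 and 6.28 CPM, and Mcm4 by 1.91 ± 0.04. With the cDNA Mcm5 fell the most (−3.29 ± 0.06) and Mcm4 again the least (−1.67 ± 0.04). Mcm7 measured 335 and 351 CPM on and 85.7 and 89.1 CPM off in sgPcyt2 cells, and 355 and 347 CPM on and 108 and 96.8 CPM off with the cDNA. Mcm5 measured 180.3 and 169 CPM on and 15.3 and 18.1 CPM off, and with the cDNA 193 and 196 CPM and 19.9 and 19.8 CPM. The 6 subunits of the ring, which join it in equal number, spread apart in RNA: the ratio of the highest to the lowest level per kilobase was 2.58 on and 5.98 off in sgPcyt2 cells, and 2.71 on and 5.89 off with the cDNA. Off the drug the ends were Mcm7 and Mcm5. In the KPnull groups that ratio stayed between 1.44 and 1.63, and in KPsh cells it was 2.13 on and off.

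Of the helicase activators, Mcm10 (−3.51 ± 0.09), Gins1 (−3.10 ± 0.14), Cdc45 (−2.87 ± 0.10) and Gins3 (−1.82 ± 0.15) fell in sgPcyt2 cells. Gins4 had the smallest called fall of all members, at −0.71 ± 0.08 in sgPcyt2 cells and −0.66 ± 0.08 with the cDNA. It read 49.7 and 56.2 CPM on and 29.6 and 35.1 CPM off in sgPcyt2 cells, and with the cDNA 48.2 and 52.9 CPM on and 32.1 ± 1.53 CPM (SD, n = 2) off. Gins2, whose exons Gse1 shares, read 89.5 and 89.5 CPM on and 87.8 and 85.0 CPM off, and 83.0 and 84.5 CPM on and 88.2 and 81.4 CPM off with the cDNA (−0.05 ± 0.05 and 0.02 ± 0.05).

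Among the polymerases, Prim1 fell the most in both states (−3.03 ± 0.08 and −2.83 ± 0.08) and Prim2 the least (−1.26 ± 0.09 and −1.29 ± 0.09), although both encode the same primase. Pold2 went from 79.3 and 72.8 CPM to 21.6 and 23.5 CPM in sgPcyt2 cells and from 85.8 and 82.7 CPM to 20.4 and 19.1 CPM with the cDNA. In the clamp group Lig1 fell by 2.56 ± 0.07 and Rfc3 by 1.07 ± 0.09 in sgPcyt2 cells, the extremes there, and with the cDNA Rpa2 fell by 2.70 ± 0.10 and Rfc2 by 1.07 ± 0.07. Pcna read 300.5 and 310.1 CPM on and 78.5 and 78.8 CPM off in sgPcyt2 cells, and 290.2 and 289 CPM and 82.9 and 80.1 CPM with the cDNA. The changes of the 5 clamp loader subunits lay between −1.59 and −1.07 over both states, each closer to 0 than that of Pcna in the same cells (−1.96 ± 0.04 and −1.83 ± 0.04).

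Of the fork and chromatin group, Clspn (−3.56 ± 0.09 and −3.40 ± 0.09), Uhrf1 (−3.34 ± 0.06 and −3.07 ± 0.06) and Chaf1a (−1.63 ± 0.05 and −1.73 ± 0.05) fell in both states. Slbp, which binds the stem-loop of histone mRNAs, read 103 and 109 CPM on and 30.8 and 31.8 CPM off in sgPcyt2 cells and, with the cDNA, 102 ± 2.55 CPM (SD, n = 2) on and 32.1 and 27.4 CPM off. Both E-type cyclins fell, Ccne1 (−3.53 ± 0.10 and −2.91 ± 0.09) and Ccne2 (−2.72 ± 0.09 and −2.70 ± 0.09). Ccne1 read 65.3 and 65.9 CPM on and 5.06 and 6.28 CPM off in sgPcyt2 cells, and 56.5 and 61.4 CPM and 7.84 and 7.89 CPM with the cDNA. Ccne2 read 66.2 and 72.0 CPM and 8.79 and 12.3 CPM, and 68.9 and 67.9 CPM and 10.3 and 10.7 CPM.

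**Figure D4:**
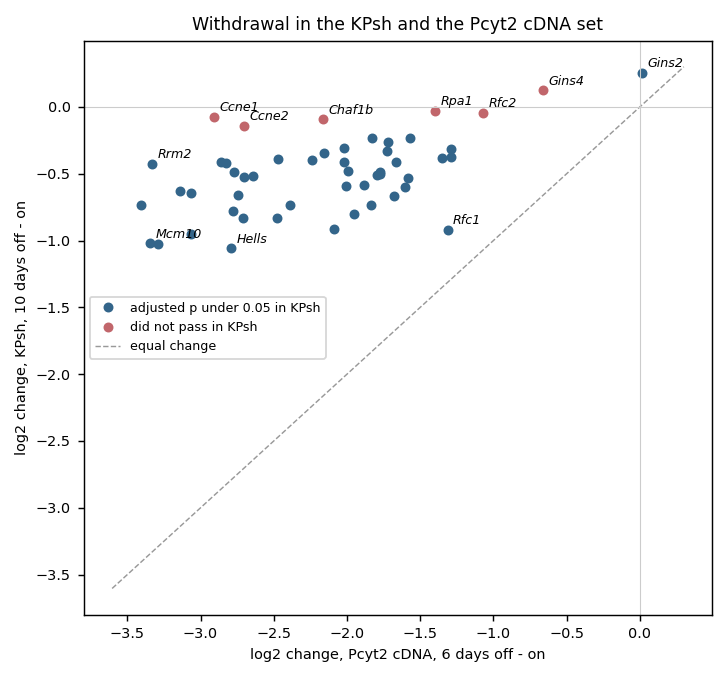
Log2 change of the 51 members on doxycycline withdrawal in the cells with the Pcyt2 cDNA (6 days, x axis) and in KPsh cells (10 days, y axis); red points did not pass in KPsh cells, and the dashed line marks equal values. Ccne1 and Ccne2 lie near 0 on the y axis and at −2.91 and −2.70 on the x axis, and Gins2 is at the right end; times and tables differ, so the values stand side by side only.

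The withdrawals of the KPsh and Pcyt2 sets differ in time, in editing and in the table they were counted in. The sets also differ in Krt7 RNA, as given above, and the part of this was not tested. Values of the KPsh and Pcyt2 sets are therefore placed side by side without a test. Trp53 RNA off doxycycline was 259, 251 and 263 CPM in KPsh cells at 10 days and 97.1 and 86.7 CPM with the cDNA at 6 days, and Cdkn1a 503, 453 and 509 CPM and 383 and 392 CPM. In all, 42 members fell in KPsh cells, with p53WT, with TAD2m, in sgPcyt2 cells and with the cDNA. Taken singly and in that order, these comparisons had 31.7%, 25.1%, 24.2%, 37.1% and 36.3% of all genes lower. The share of all genes lower in every one of them was not counted. Across the 51 members, as a description, log2 changes with p53WT and on withdrawal with the cDNA had a Pearson r of 0.73 and a Spearman rho of 0.65 (0.66 and 0.63 without Gins2). For KPsh withdrawal and withdrawal with the cDNA they were 0.55 and 0.47 (0.47 and 0.43 without Gins2). For KPsh withdrawal and p53WT they were lower, at 0.43 and 0.35 (0.31 and 0.31 without Gins2). KPsh and sgPcyt2 withdrawal gave 0.4 and 0.32 (0.3 and 0.28 without Gins2), and p53WT and sgPcyt2 withdrawal 0.72 and 0.66 (0.66 and 0.64). The 2 Pcyt2 states gave 0.96 and 0.95. Such coefficients are over genes of the same libraries, which are not independent.

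The members in sgPcyt2 cells were set against those in cells with the cDNA in 3 ways. Pcyt2 RNA with the cDNA was far above that of KPsh cells without the guide. Effects of Pcyt2 loss and of its high level with the cDNA therefore cannot be told apart. On doxycycline, with p53 silenced, sgPcyt2 cells differed from those with the cDNA in 3 members, where 10% of all genes were lower and 8.4% higher. Mcm4 was higher (0.17 ± 0.04), at 351 and 357 CPM against 317 and 314 CPM, and Mcm5 (−0.16 ± 0.05) and Lig1 (−0.18 ± 0.05) were lower. Only the Mcm4 call was made in every alternative. Markers of other cell types differed as well: the summed fibroblast markers, mostly Pdgfra, were at 9.28 to 9.37 CPM in sgPcyt2 cells and 2.59 to 2.86 CPM with the cDNA, and the endothelial ones, mostly Cdh5, at 2.24 to 2.78 CPM and 0.66 to 0.83 CPM. The fibroblast markers Col1a2, Dcn, Fap, Lum and Thy1 and the endothelial markers Kdr and Tek were at 0. Off doxycycline 18 members were lower in sgPcyt2 cells, 2 higher and 31 did not pass, at a median of −0.10, against 16.8% of all genes lower and 16.3% higher. By role the lowest and highest called were Cdc6 (−0.61 ± 0.14) and Mcm7 (−0.23 ± 0.05), Pole2 (−0.72 ± 0.21) and Pold3 (0.29 ± 0.11), Lig1 (−0.25 ± 0.09) and Rfc1 (0.23 ± 0.05), Rrm2 (−0.60 ± 0.15) and Dut (−0.18 ± 0.07), and Chaf1b (−0.39 ± 0.12) and Uhrf1 (−0.35 ± 0.08). Ccne1 was lower as well (−0.48 ± 0.15). Uhrf1 and Rfc1 were called in every alternative, and the count was 5 without sgPcyt2 off doxycycline replicate 1, 8 without the cDNA off doxycycline replicate 1 and 13 with DESeq2.

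The difference between the 2 withdrawals, tested as an interaction, passed for 19 members: 15 fell further in sgPcyt2 cells, 4 fell less and 32 did not pass. Over all genes 12.4% were called lower and 12.8% higher, with a median of 0.02, and the members' median was −0.13, with 38 of 51 below 0. The share called was 37.3% of the members and 25.2% of all genes. By role the lowest and highest of the called members were Cdc6 (−0.59 ± 0.15) and Mcm7 (−0.20 ± 0.07), Tk1 (−0.50 ± 0.13) and Rrm1 (−0.22 ± 0.08), and Chaf1b (−0.52 ± 0.14) and Uhrf1 (−0.27 ± 0.09). Called polymerase genes ran from Pole2 (−0.69 ± 0.24) to Pold3 (0.36 ± 0.13) and called clamp genes from Fen1 (−0.29 ± 0.09) to Rpa2 (0.41 ± 0.15), and Ccne1 was at −0.63 ± 0.16. None of the 6 helicase activators passed in edgeR, nor had an unadjusted p under 0.05. Pole2, the lowest, read 15.5 and 16.5 CPM on and 2.20 and 2.68 CPM off in sgPcyt2 cells and 16.1 and 16.6 CPM and 4.51 and 3.54 CPM with the cDNA. Rpa2 went the other way, at 43.7 and 43.4 CPM on and 8.32 and 9.46 CPM off in sgPcyt2 cells and 46.9 and 48.4 CPM and 7.51 and 7.15 CPM with the cDNA. Each of these differences was smaller than the fall itself in both states.

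The 19 calls depended on single libraries. Mcm4, Pola1 and Rpa1 were called in every alternative. The count was 8 with DESeq2, 10 without sgPcyt2 off doxycycline replicate 1, and 12 without the cDNA off doxycycline replicate 1 or the cDNA on doxycycline replicate 1. The 4 members that fell less in sgPcyt2 cells, Pold2, Pold3, Rfc1 and Rpa2, were each lost in 4 to 9 of 13 alternatives. The sgPcyt2 libraries off doxycycline differed from each other, with member medians of −2.49 and −2.09 relative to the cells with the cDNA on doxycycline. The p53 axis differed too: Trp53 rose by 1.00 ± 0.08 in sgPcyt2 cells and 2.21 ± 0.07 with the cDNA, and Cdkn1a by 2.01 ± 0.04 and 2.95 ± 0.05. So did markers of other cell types, with interactions of −1.63 ± 0.36 for Cdh5, −1.05 ± 0.26 for Pdgfra and −0.74 ± 0.21 for Csf1r, and off the drug Pdgfra was higher (0.80 ± 0.17) and Csf1r lower (−0.44 ± 0.16) in sgPcyt2 cells. The part of these differences in the members was not tested.

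**Figure D5:**
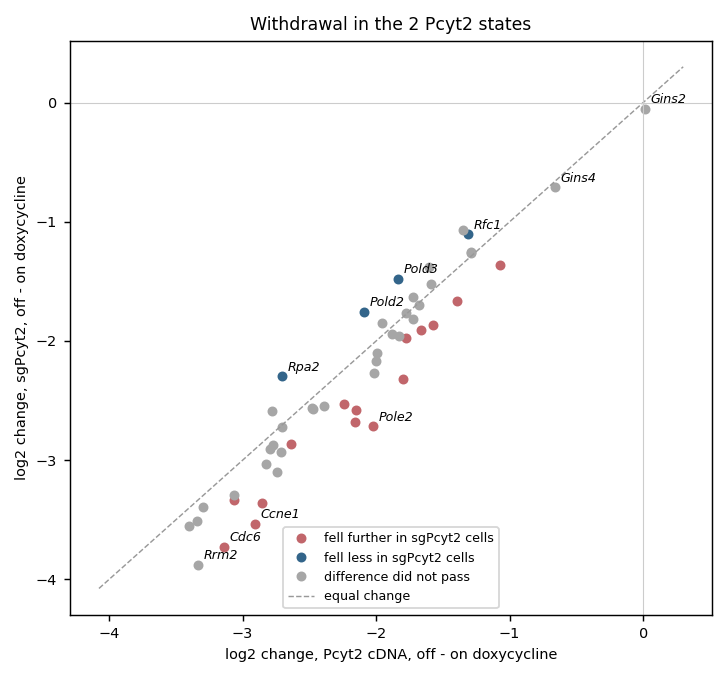
Log2 change of the 51 members on withdrawal in cells with the Pcyt2 cDNA (x axis) and in sgPcyt2 cells (y axis), coloured by the test of the difference; the dashed line marks equal change. The points follow the line from Gins2 near 0 to Rrm2, 15 lie below it in red and 4 above it in blue, and 32 grey points did not pass.

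Other genes of the same machinery were read from lists that hold no member. Of 37 further replication genes, 32 fell and 2 rose in KPsh cells, 32 fell and 1 rose with p53WT, 33 and 1 with TAD2m, 18 and 1 with TAD1m, and none passed with TAD12m in edgeR, where 2 had an unadjusted p under 0.05. In each Pcyt2 state 36 fell and 1 rose. Of all genes tested, 31.7% were lower and 33.1% higher in KPsh cells, 25.1% and 25.5% with p53WT, and 24.2% and 24.9% with TAD2m. With TAD1m these shares were 17.5% and 19%, and with TAD12m 1.85% and 2%. They were 37.1% and 39.2% in sgPcyt2 cells and 36.3% and 37.3% with the cDNA. The median log2 changes of the 37 genes were −0.56 in KPsh cells, −0.86 with p53WT, −0.80 with TAD2m, −0.17 with TAD1m, −1.70 in sgPcyt2 cells and −1.57 with the cDNA, beside medians of all genes between −0.01 and 0.02. The gene that rose in each was Pold4, the smallest subunit of polymerase delta, joined by Rnaseh2a in KPsh cells alone. Pold4 rose by 2.16 ± 0.10 in KPsh cells, 1.59 ± 0.11 with p53WT, 1.78 ± 0.11 with TAD2m, 1.31 ± 0.11 with TAD1m, 0.71 ± 0.06 in sgPcyt2 cells and 1.49 ± 0.06 with the cDNA. Its partners Pold1, Pold2 and Pold3 were called higher in none of these 6 comparisons. Recql4 (−1.33 ± 0.10) and Ticrr (−1.29 ± 0.11), which act when origins fire, had the largest falls in KPsh cells, the kinase gene Cdc7 (−1.25 ± 0.10) and the nuclease gene Dna2 (−1.17 ± 0.08) with p53WT, and topoisomerase Top2a (−3.94 ± 0.05) and Recql4 (−3.82 ± 0.19) in sgPcyt2 cells.

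The 33 further genes of nucleotide metabolism were mixed. In KPsh cells 19 fell and 7 rose, with p53WT 22 and 6, with TAD2m 22 and 6, with TAD1m 12 and 7, and with TAD12m none passed in edgeR, where 4 had an unadjusted p under 0.05. In sgPcyt2 cells 25 fell and 8 rose, and with the cDNA 25 and 7. The shares of all genes given for the replication genes apply here too. With TAD1m 36.4% of the 33 were lower against 17.5% of all genes, and 21.2% higher against 19%. In sgPcyt2 cells all 33 were called, where 76.3% of all genes were. Here the median log2 changes were −0.29 in KPsh cells, −0.29 with p53WT, −0.28 with TAD2m, −0.10 with TAD1m, −0.94 in sgPcyt2 cells and −0.93 with the cDNA. Cytidine deaminase Cda rose by 2.95 ± 0.14 in KPsh cells, 2.04 ± 0.17 with p53WT, 1.98 ± 0.17 with TAD2m and 2.13 ± 0.16 with TAD1m. Umps (−1.22 ± 0.05) of pyrimidine and Pfas (−1.04 ± 0.06) of purine synthesis had the largest falls in KPsh cells, and deoxycytidine kinase Dck (−2.21 ± 0.07) fell in sgPcyt2 cells. Of 28 genes of the E2F, retinoblastoma and DREAM system 16 fell and 6 rose in KPsh cells, 19 and 3 with p53WT, 20 and 3 with TAD2m, 12 and 3 with TAD1m and 2 and 0 with TAD12m. In sgPcyt2 cells 21 fell and 7 rose, and with the cDNA 21 and 6. Beside these counts stand the same shares of all genes, with 76.3% of all genes called in sgPcyt2 cells. For the 28 genes median log2 changes were −0.31 in KPsh cells, −0.58 with p53WT, −0.49 with TAD2m, −0.17 with TAD1m, −0.97 in sgPcyt2 cells and −0.95 with the cDNA. Mybl2, a partner of the activating MuvB complex, fell in both Pcyt2 states (−4.56 ± 0.10 and −4.17 ± 0.09). Cyclin A2 (Ccna2) fell by 1.13 ± 0.06 with p53WT, and cyclin D1 (Ccnd1) rose by 1.38 ± 0.05 in KPsh cells and fell by 0.41 ± 0.06 with TAD12m. With TAD12m, Ccnd1 and Ccnd2 (−0.30 ± 0.05) were the only calls of these 3 lists.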

How the data were processed

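The deposited values are expected counts per gene in steps of 0.5, made by the authors and not normalized. Per the file headers, HOMER counted reads of both strands over the exons of GENCODE vM25 genes, with 1 transcript kept per gene. The submitters' processing notes name STAR 2.6.1c, HOMER and mm10, and per the labels' protocols libraries came from TRIzol RNA with a stranded mRNA kit. Since both strands were counted, reads of overlapping genes cannot be separated.

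Counts were rounded to whole numbers, steps of 0.5 upward, which changed library totals by at most 0.0533%. Each of the 3 tables was fitted alone with edgeR 4.0.16 (R 4.3.3, limma 3.58.1), all groups of a table in 1 fit, with filterByExpr, TMM scaling, the robust quasi-likelihood test and Benjamini-Hochberg adjustment over all genes tested. Residual degrees of freedom were 4, 5 and 4 in the KPsh, KPnull and Pcyt2 tables, so p-values borrow spread across genes. The pipeline was tested on simulated data. Of genes given a true log2 change of 0.5, it called 66 of 96 in the KPsh table, 57 of 97 in the KPnull table and 73 of 99 in the Pcyt2 table. Unchanged genes called were 17, 9 and 12, so a small change that did not pass may have been missed. Each simulation changed only 200 genes, drawn over all levels of expression. In the data 64.8%, 50.6% and 76.3% of all genes were called in the comparisons simulated. The recovery rates therefore need not be those of the members. Alternatives were DESeq2 1.42.0, RLE scaling, library totals alone, no low-count filter, only the groups compared, the replicate number as a block, and leaving out each library. Members with over 10% exon overlap were left out, and replicate numbers crossed, after seeing the data.

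In the KPsh table the columns off doxycycline, which name only the day, and in the Pcyt2 table those with the cDNA were matched to samples by elimination. Deviations of same-numbered replicates correlated between −0.17 and 0.35, the highest being TAD12m with vector. This range does not settle whether numbers pair samples. The main fit did not pair them, and the replicate number as a block was an alternative. Replicates differed beyond sampling noise.

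The members and lists were chosen with earlier results of these data known. Values per library were given for the member with the most RNA per kilobase in each role group, and in each comparison the called members with the lowest and highest change per role group were named. Members called against the main direction were named, and those not passed where 5 or fewer. From further lists up to 3 called genes of at least 5 CPM with the largest change were named, except for an item not reported here. The 6 members not passed in KPsh cells, Mcm5, Hells, Cdc6, Pole2, Rpa2, Cdc45, Gins1, Gins3, Tyms, Uhrf1 and Pold4 were also described where the rule did not name them, and so chosen after their values were seen. The number of libraries limits precision.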

Additional observations from a re-analysis of the deposited data

Results flagged for a closer look

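The change on doxycycline withdrawal differed between sgPcyt2 cells and cells with the Pcyt2 cDNA, by the interaction term of edgeR's quasi-likelihood fit, for 19 of the 51 members (adjusted p under 0.05, n = 2 libraries per group). By the same test 25.2% of all genes were called. Of the 19 calls 3 were made in every alternative, and 16 were lost in at least 1, Pole2 and Rpa2 among them. The fall was deeper in sgPcyt2 cells for Pole2 (−0.69), Ccne1 (−0.63), Cdc6 (−0.59), Pola1 (−0.52), Chaf1b (−0.52), Tk1 (−0.50) and Tipin (−0.43). The difference was smaller for Dut (−0.30), Fen1 (−0.29), Rfc2 (−0.29), Rpa1 (−0.27), Uhrf1 (−0.27), Mcm4 (−0.24), Rrm1 (−0.22) and Mcm7 (−0.20). The fall was shallower in sgPcyt2 cells for Rpa2 (0.41), Pold3 (0.36), Pold2 (0.34) and Rfc1 (0.21). All values are differences of log2 changes.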

How the results depend on the processing

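Counts of called members stayed within 1.5 times the reported ones under RLE scaling, library totals and the replicate block in all 13 comparisons. The exon overlap limit made no new fit and counted the same calls over 42 members. Large counts could therefore not leave that band, and the limit cannot show whether overlap affects the calls. With DESeq2 TAD1m against TAD12m gave 12 members in place of 20, sgPcyt2 against the cDNA 1 in place of 3 on doxycycline and 13 in place of 20 off it, and the interaction 8 in place of 19. On doxycycline the count was 5 with no low-count filter and 7 with only the groups compared. The cause was not tested. Leaving out 1 library gave 8 to 19 members for TAD1m against TAD12m, 1 to 3 for sgPcyt2 against the cDNA on doxycycline (1 without the cDNA on doxycycline replicate 1 or replicate 2), 5 to 22 off it, and 10 to 22 for the interaction. It gave 44 to 45 members in KPsh cells, 48 to 50 with p53WT, 17 to 23 with TAD1m, 48 to 51 with TAD2m, 47 to 49 for TAD1m against p53WT, and 50 for each withdrawal in the Pcyt2 set. With 2 libraries per group the remaining one is assumed to vary like the other groups. With the replicate number as a block, 44 members were called in KPsh cells, 50 with p53WT and 24 with TAD1m, 18 for TAD1m against TAD12m, 18 for sgPcyt2 against the cDNA off doxycycline and 19 for the interaction. With vector numbers crossed, 51 members were called with p53WT and 51 with TAD2m. Over 6936 values of single members under an alternative, 6443 kept direction and call, 237 were no longer called and 54 became called. A further 202 uncalled values changed sign, and no called value reversed. Library totals in place of TMM moved the KPsh median to −0.54. All members passed the low-count filter, but some were low off doxycycline in sgPcyt2 cells, where Orc1 averaged 2.18 CPM and Pole2 2.44 CPM, and the effect of depth on calls was not tested.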
